A study of Mus musculus with 3 samples.

Results

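TM6 is a small group of stromal cells from the iridocorneal angle of the mouse eye, which the authors placed, with TM7, TM8 and TM9, in the uveal stroma that carries *Pdgfrb* and *Angpt1*. Its members were taken as the cells that passed the authors' quality control and carry the cluster label TM6, and they number 253 of 26008 kept cells, or 253 of the 8073 cells labelled TM1 to TM11. Control library 1 gave 112 of them, control library 2 gave 91 and the *Angpt1*ΔNC library gave 50. The most similar groups, TM7, TM8 and TM9, were set beside it and hold 1580, 1358 and 829 cells.

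The study asked how neural crest-derived tissue around Schlemm's canal, the vessel that drains aqueous humor, signals to the canal endothelium. Droplet-based RNA sequencing was applied to dissected angle and limbus of mice at 6 weeks of age. The controls were *Angpt1* flox/flox animals without Cre, called WT in the library titles, in 2 pools, and the *Angpt1*ΔNC animals were *Angpt1* flox/flox;Wnt1Cre+ in 1 pool. Each library pooled the eyes of several mice on a mixed, ICR-crossed albino background, so the library is the replicate and the knockout has 1. The labels say that males and females were pooled, but *Xist* had no UMI in TM6 to TM9 of either control. The floxed *Angpt1* alleles were shared by all 3 libraries. Wnt1-Cre acts in the neural crest lineage, leaves *Angpt1* intact in cells of other origin, and its transgene lies in *H2afv* (also named *H2az2*). The libraries held 76981606, 80346829 and 66484181 UMIs (unique molecular identifiers, each standing for 1 captured transcript) in kept cells, in the order control 1, control 2 and *Angpt1*ΔNC, which is kept throughout. TM6 held 453706, 390067 and 244103 of these UMIs. Across the libraries 52 cell barcodes occurred more than once among kept cells, and 1 of them belonged to a TM6 cell.

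*Angpt1* encodes angiopoietin-1, a secreted ligand of the endothelial receptor TEK (TIE2) that is needed for Schlemm's canal to form, and *Pdgfrb* encodes a receptor for platelet-derived growth factors that marks perivascular and stromal cells of the uvea. Immediate early genes such as *Fos*, *Jun* and *Egr1* encode transcription factors that are switched on within minutes of a stimulus without new protein synthesis, and their transcripts decay quickly. Heat shock genes encode chaperones that are switched on when proteins unfold. Both programs respond to signals in tissue and also to enzymatic dissociation, and since all libraries were dissociated with collagenase and trypsin these sources cannot be told apart here.

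The markers given for the group were present. The mean level of *Pdgfrb*, as UMIs per 10,000 averaged over cells, was 3.03, 2.47 and 2.43 in TM6 of the 3 libraries and ranked 2, 3 and 3 among 35 cell labels, with cluster 20, the label that carried the pericyte genes most strongly, in first place. *Pdgfrb* had a UMI in 69.6% of TM6 cells of control 1 (95% Clopper-Pearson CI 60.2 to 78.0), in 61.5% in control 2 (CI 50.8 to 71.6) and in 64.0% in *Angpt1*ΔNC (CI 49.2 to 77.1), where limbal and corneal epithelium, which should lack it, had 0.708%, 0.791% and 0.549%. The intervals cover counting error only. The epithelial cells had median depths of 17717, 15168.5 and 15135 UMIs against 3839, 3988 and 4576.5 in TM6, so the low epithelial shares did not come from shallow cells. Some defining genes of other cell types were at 0 UMIs in TM6 of all libraries, while others on the same lists were present: *Ptprc* and *Cd3e* of leukocytes, *Cdh5* and *Kdr* of endothelium, *Higd1b* of pericytes, *Myh11* and *Cnn1* of smooth muscle, *Mbp* of glia and *Cdh2* of corneal endothelium. The 10 smooth muscle markers summed to 7.37, 5.86 and 10.5 UMIs per 10,000, with 8, 6 and 7 of them detected, and the 7 corneal endothelium markers to 2.58, 2.59 and 2.52. The 10 pericyte markers summed to 3.99, 2.77 and 1.89, against 13.3, 11.3 and 5.10 in TM7, 7.60, 5.81 and 2.28 in TM8 and 2.62, 1.84 and 2.56 in TM9, and their most abundant member in control 1 was *Rgs5* at 1.29. The 8 endothelial markers summed to 3.08, 3.49 and 1.90, of which *Emcn* alone gave 2.65, 3.19 and 1.34. The 5 erythrocyte genes summed to 12.4, 0.0508 and 0.542, led by *Hbb-bs* at 8.998, 0.0508 and 0.402, so within TM6 haemoglobin RNA stood out in control 1. It was not particular to TM6, as the sum in control 1 was 6.15 in TM7, 7.32 in TM8 and 0.219 in TM9. In TM8 of *Angpt1*ΔNC it was 33.7. The genes that led TM6 over all other cells mixed immediate early genes, such as *Fos* (rank 1) and *Jun* (rank 8), with others. Among these were *Rasl11a* (rank 2) and *Pgf* (rank 4), and the marker *Angpt1* had rank 38. With only 2 markers given, the cells are called by their label, TM6, below.

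*Angpt1*, the targeted gene, was read in TM6 first because it checks the genotype labels, and the authors had left it out of integration and clustering. At 2.84 and 2.20 UMIs per 10,000 in the controls its level ranked 1 of 35 labels in both, and it was 0 in *Angpt1*ΔNC. In control 1, 65 of 112 TM6 cells had an *Angpt1* UMI (58.0%, CI 48.3 to 67.3), in control 2 there were 44 of 91 (48.4%, CI 37.7 to 59.1) and in *Angpt1*ΔNC 0 of 50 (upper limit of the CI 7.11%). The UMIs themselves numbered 130, 88 and 0, and both controls stood far from the knockout. Epithelium, as background, had 0.303%, 0.494% and 0%. After every cell was thinned to 2000 UMIs, with 3, 1 and 2 shallower TM6 cells left out, the TM6 shares were 38.5%, 26.7% and 0%, and after thinning to 1000 UMIs they were 25.9%, 18.7% and 0%. TM7 thinned in the same way had 35.1% and 32.2% in the controls at 2000 UMIs and 20.1% and 18.8% at 1000, so at equal depth TM6 was above TM7 in control 1 only. The control shares in TM7 were 59.7% and 62.0% at median depths of 5718 and 6201 UMIs, in TM8 38.2% and 41.5%, and in TM9 31.9% and 37.2%. The mean level placed TM6 above TM7 (2.55 and 2.16), TM8 (1.43 and 1.61) and TM9 (1.01 and 1.17) in both controls, although the distance to TM7 in control 2 was small. The gene (ENSMUSG00000022309) lies on chromosome 15 at chr15:42424723-42676977, minus strand, in build GRCm38.

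What set TM6 apart from TM7, TM8 and TM9 was its immediate early genes. *Fos*, a subunit of the AP-1 transcription factor, had levels of 113, 74.1 and 45.8 UMIs per 10,000 in TM6, while the highest of TM7 to TM9 in the same library had 4.07, 3.06 and 1.89. The lowest TM6 value thus exceeded every value of the other groups, and the smaller of the control folds was 23.5. *Jun*, the partner of *Fos* in AP-1, had 51.5, 31.3 and 28.0 against at most 4.05, 3.31 and 2.46. *Irf1*, an interferon-responsive transcription factor, had 9.85, 7.04 and 2.92, *Klf2*, a Krüppel-like factor, had 16.8, 15.2 and 11.8, and *Egr1*, a zinc finger factor, had 14.7, 14.6 and 10.5. In every library these 5 genes were highest in TM6 among the 4 uveal groups. *Atf3*, a stress-induced transcription factor, stood at 16.5, 15.8 and 9.44, and *Zfp36*, which promotes decay of AU-rich mRNAs, at 9.89, 8.78 and 6.29. *Txnip*, which binds thioredoxin and restrains glucose uptake, is not an immediate early gene in the usual sense and had 4.02, 2.89 and 3.52 against at most 0.290, 0.257 and 0.293 elsewhere.

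The 25 genes with the largest fold over all of TM7, TM8 and TM9 in both controls, in order and as far as reported here, were *Fos*, *Irf1*, *Jun*, *Txnip*, *Klf2*, *Hspa1a*, *Egr1*, *Atf3*, *Gm26532*, *Id2*, *Zfp36*, *Rasl11a*, *Btg2*, *Hspa1b*, *Cyr61*, *Pim3*, *Dnajb1*, *Ier5l*, *Nr4a1*, *Rhob*, *Id1*, *Hes1* and *Junb*. The last of them, *Junb*, had a fold of 2.66 and the next gene, *Ppp1r15a*, 2.63. Of 38 immediate early genes, all of which passed the level filter, 19 were at least 2-fold above TM7, TM8 and TM9 in both controls, or 50%, where 88 of 6918 genes, or 1.27%, were so. Among genes with a UMI in at least 25% of TM6 cells of both controls, from which the 25 were taken, 55 reached 2-fold. At a looser cut-off of the same folds, 29 of the 38 stood above all 3 groups by any amount, beside 19.8% of all genes. The median fold of the 38 over the mean of the groups was 2.67, 2.29 and 2.24, against 0.968, 0.948 and 0.986 over all genes. Of the other 9, *Fosl1* and *Maff* were below TM7, TM8 and TM9 in both controls. The cells had been clustered on these genes, so these contrasts describe the group and were not tested.

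**Figure D1:**
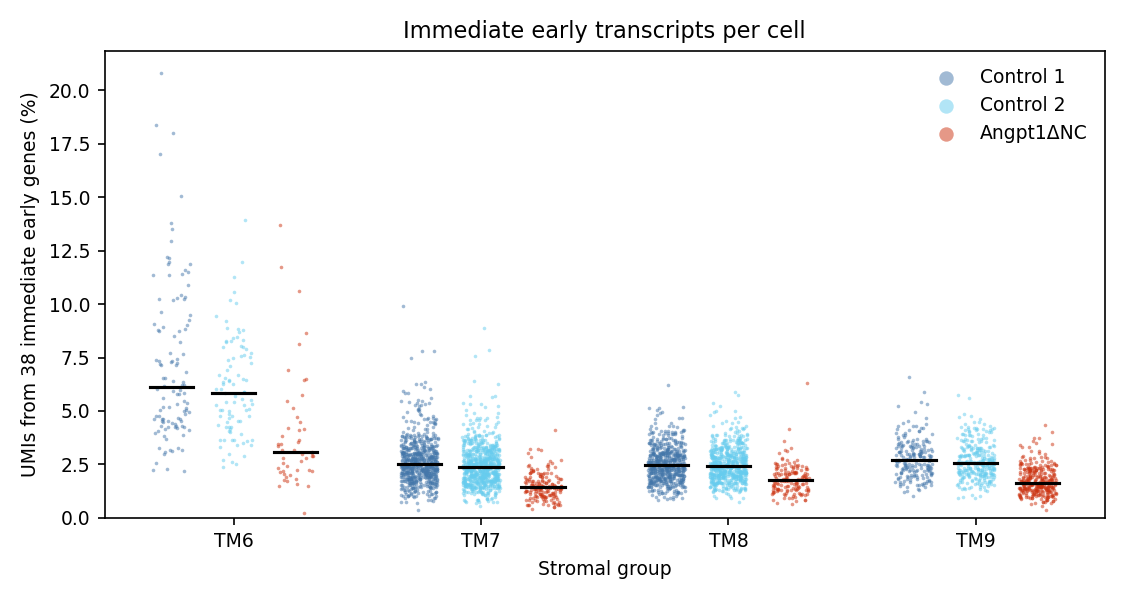
Each point is 1 cell, placed by stromal group and coloured by library, and the vertical axis is the percent of its UMIs from 38 immediate early genes; black bars are medians. TM6 medians are 6.10%, 5.86% and 3.06% in control 1, control 2 and *Angpt1*ΔNC, above those of TM7, TM8 and TM9 in the same library.

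Chaperone genes were also high. *Hspa1a*, the main stress-inducible HSP70, had 12.3, 15.1 and 11.0 UMIs per 10,000 in TM6, and the highest of the other groups had 1.57, 1.62 and 0.850. *Dnajb1*, its J-domain co-chaperone, had 12.6, 12.2 and 5.15. Of 19 heat shock genes 13 stood above TM7, TM8 and TM9 in both controls (68.4%, beside 19.8% of all genes) and 4 at least 2-fold (21.1%, beside 1.27%), namely *Hspa1a*, *Hspa1b*, *Hspa2* and *Dnajb1*, and the median fold of the list was 1.29, 1.34 and 1.54. *Hspa8*, the constitutive HSP70, was 40.5, 39.1 and 29.5 in TM6 against 22.3, 20.9 and 19.3 in the highest other group, whereas *Hsph1*, at 1.29, 1.96 and 1.73, lay within or below the others. *Hspa1a* and *Hspa1b* are near-identical copies, so reads may be split between them and each value is uncertain.

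Genes of the ID and HES families, which encode helix-loop-helix repressors downstream of BMP and Notch signals, were also high. *Id2* had 7.12, 7.55 and 5.25 UMIs per 10,000 against at most 1.47, 1.55 and 1.12, *Id1* had 5.47, 7.44 and 6.55, and *Hes1* had 8.62, 6.85 and 6.96 against at most 2.32, 2.36 and 4.48. *Id3*, the most abundant, had 45.7, 46.7 and 38.7, and the highest of the others was 23.2, 19.7 and 29.4. Of 7 genes of this list past the level filter, 3 (42.9%, beside 1.27% of all genes) were at least 2-fold above all 3 groups. Among nuclear-retained and splicing-related transcripts 5 of 15 (33.3%) were, *Ccnl1*, *Wsb1*, *Clk1*, *Topors* and *Hexim1*, while *Malat1*, a long noncoding RNA kept in the nucleus, had 312, 333 and 388 against 293, 322 and 345 in the highest other group. The list as a whole had a median fold of 1.12, 1.03 and 1.30, beside 0.968, 0.948 and 0.986 over all genes. Lower still were *Neat1* and *Srsf5*, below TM7, TM8 and TM9 in both controls.

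Sequence before the transcription start was read for the leading genes, because CREB and HSF1 are textbook regulators of immediate early and heat shock genes. Of the 25 genes, 18 have a promoter in the RefSeq table used (GRCm38.p6). The 5 letters TGACG, the core of the cyclic AMP response element, occurred on either strand in the 250 bases before the start of 8 of the 18 genes, *Fos*, *Klf2*, *Atf3*, *Rasl11a*, *Btg2*, *Dnajb1*, *Nr4a1* and *Junb*, and in 17.8% of 32851 promoters of the table. GAANNTTC, a unit of the heat shock element, occurred in 4, *Jun*, *Hspa1a*, *Hspa1b* and *Ier5l*, and in 6.69% of all. TATAAA, the TATA box, occurred in *Fos* and in 12.4% of all. A gene was counted if any of its windows matched, and for *Dnajb1* not every window did. The shares of the table are per promoter, so the counts and the shares are not on the same scale. The windows of *Fos* (chr12:85473640-85473889, plus strand), *Btg2* (chr1:134079156-134079405, minus strand), *Nr4a1* (chr15:101266596-101266845, plus strand) and *Hspa1a* (chr17:34972157-34972406, minus strand) are shown as examples of each motif, 5′ to 3′ on the gene's strand and ending at the base before the start, with matches on either strand in capitals. In *Btg2* a match on each strand overlaps to TGACGTCA, and in *Nr4a1* all 4 matches are of the opposite strand and read CGTCA. A match describes these letters only.
Fos: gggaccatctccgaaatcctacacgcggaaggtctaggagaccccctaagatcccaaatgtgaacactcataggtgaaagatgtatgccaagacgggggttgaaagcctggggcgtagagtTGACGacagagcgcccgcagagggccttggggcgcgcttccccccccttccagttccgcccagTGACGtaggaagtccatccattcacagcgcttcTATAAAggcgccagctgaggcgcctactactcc
Btg2: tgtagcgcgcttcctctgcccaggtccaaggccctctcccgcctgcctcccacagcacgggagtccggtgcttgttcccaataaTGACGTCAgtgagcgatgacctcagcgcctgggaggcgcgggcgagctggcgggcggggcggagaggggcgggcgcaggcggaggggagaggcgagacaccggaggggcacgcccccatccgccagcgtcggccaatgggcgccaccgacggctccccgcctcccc
Nr4a1: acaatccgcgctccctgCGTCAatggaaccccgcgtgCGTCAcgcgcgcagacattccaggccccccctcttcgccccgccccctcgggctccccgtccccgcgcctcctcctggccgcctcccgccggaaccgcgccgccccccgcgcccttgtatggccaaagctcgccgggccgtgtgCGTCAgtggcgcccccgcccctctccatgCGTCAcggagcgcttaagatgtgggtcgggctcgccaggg
Hspa1a: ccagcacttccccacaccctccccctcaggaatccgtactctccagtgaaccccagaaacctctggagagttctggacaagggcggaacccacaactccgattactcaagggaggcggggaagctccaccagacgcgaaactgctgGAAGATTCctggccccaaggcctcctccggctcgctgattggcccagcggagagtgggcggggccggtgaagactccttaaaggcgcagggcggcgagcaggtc

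Other genes were lower in TM6 than in its neighbours. *Timp1*, an inhibitor of matrix metalloproteinases, had 0.744, 0.627 and 0.915 UMIs per 10,000 in TM6 and at least 4.63, 4.28 and 3.39 in TM7, TM8 and TM9. *Il6*, a pleiotropic cytokine, had 0.295, 0.344 and 0.106 against at least 2.09, 2.93 and 2.51, and *Il11*, of the same family, 0.369, 0.771 and 2.58 against at least 2.56, 4.24 and 3.74. No TM6 value reached that of another group in its library for these 3 genes. The 15 genes lowest in TM6 relative to TM7, TM8 and TM9 in both controls, as far as reported here, were *Timp1*, *Il6*, *Il11*, *Metrnl*, *Ccl2*, *Stx6*, *Ifi35*, *Lhfpl2*, *Plaur*, *Cd44*, *Tm4sf1*, *Isg20*, *Xaf1* and *Stx11*. *Plaur* encodes the urokinase receptor, at 1.45, 1.74 and 1.54, and *Cd44* the hyaluronan receptor, at 0.485, 0.441 and 0.480. The 15th, *Stx11*, had a fold of 0.411 and the next gene, *Phc2*, 0.413. In all, 77 of 6918 genes (1.11%) lay at least 2-fold below all 3 groups in both controls.

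Of the chemokine and cytokine list, 4 of 14 members past the level filter (28.6%) were at least 2-fold below TM7, TM8 and TM9 in both controls, *Ccl2*, *Ccl7*, *Il6* and *Lif*. *Ccl2*, which draws monocytes, had 5.98, 5.94 and 3.87 UMIs per 10,000 in TM6, while TM7 had 25.3, 21.02 and 18.6, TM8 29.7, 30.8 and 101, and TM9 70.1, 61.5 and 141. *Cxcl10*, a ligand of the T cell receptor CXCR3, was the exception in the controls, at 29.9 and 41.2 against at most 24.7 and 33.2, and it stood at 12.6 against at most 24.9 in *Angpt1*ΔNC. *Cxcl12*, which retains leukocytes and progenitors through CXCR4, lay within the range of the others at 11.1, 14.96 and 12.5. Interferon-stimulated genes had no member above all 3 groups, 11 of 21 below them, where 24% of all genes were, and 2, *Gbp2* and *Xaf1*, at least 2-fold below. The median share of a TM6 cell's UMIs in this list was 0.792%, 0.797% and 0.762%, and the lowest of TM7 to TM9 was 1.05%, 0.857% and 1.25%. *Irf1* was thus high in TM6 while no member of this list stood above all 3 groups in both controls. *Cxcl10*, which is not on this list, did. Collagen and basement membrane genes had 0 of 22 above all 3 groups, 7 below them (31.8%, beside the 24% of all genes) and a median fold of 0.763, 0.758 and 0.680.

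*Pgf*, placental growth factor, a ligand of VEGFR1, had 5.21, 5.38 and 3.52 UMIs per 10,000 against at most 3.41, 3.42 and 1.47. *Kitl*, the ligand that melanocytes need through KIT, had 6.16, 7.05 and 4.93 and lay within or below the range of the others, and *Edn3*, a factor for neural crest and melanocytes, had 8.60, 6.31 and 2.94. *Vegfa*, the main endothelial growth factor, had 2.84, 2.93 and 4.24, within or below the range of TM7 to TM9. Of 18 secreted growth factors past the level filter 1, *Bmp4*, stood above all 3 groups and 4 (22.2%) below them, near the 24% of all genes. The pericyte gene *Rgs5* had 1.29, 0.382 and 0.197, below TM7 (11.5, 9.27 and 3.32), above TM9 (0.151, 0.0953 and 0.0433) and on either side of TM8 (0.573, 0.623 and 0.0498). *Chil1*, a trabecular meshwork gene, had 1.15, 2.74 and 0.933 where TM7 had 20.6, 28.8 and 6.26. *Dcn*, for the proteoglycan decorin, had 47.4, 46.3 and 115, and *Lum*, for lumican, 21.9, 30.2 and 29.4. Of 16 transcription factors of the anterior segment and neural crest, 7 (43.8%, beside 19.8% of all genes) stood above all 3 groups in both controls, among them *Foxc1*, *Nr2f1*, *Nr2f2*, *Twist1* and *Pou3f1*. *Twist1*, a mesenchymal factor of the neural crest, had 4.54, 4.84 and 3.37 against at most 2.29, 2.22 and 1.44, and *Pou3f1* had 2.76, 3.24 and 1.62 against at most 1.12, 0.946 and 0.633. *Pou3f1* alone of the 16 was at least 2-fold above.

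Individual TM6 cells varied widely in these programs. Immediate early genes took a median of 6.10% of a cell's UMIs in control 1 (range 2.20 to 20.8), 5.86% in control 2 (2.39 to 13.95) and 3.06% in *Angpt1*ΔNC (0.205 to 13.7), the highest median of 35 labels in every library. TM7 had medians of 2.51%, 2.40% and 1.44%, TM8 2.45%, 2.43% and 1.79%, and TM9 2.72%, 2.54% and 1.64%, so the *Angpt1*ΔNC library was lowest in all 4 groups. In the knockout the margin was slight, 3.063% against 3.058% in the lymphatic endothelium label that followed. The 95th percentile over TM7 to TM9 cells was 4.30%, 4.09% and 2.78%, and 89 of 112 TM6 cells (79.5%), 72 of 91 (79.1%) and 30 of 50 (60%) exceeded it. The reverse overlap was small: 10 of 1462 TM7 to TM9 cells (0.684%) in control 1, 6 of 1649 (0.364%) in control 2 and 22 of 656 (3.35%) in *Angpt1*ΔNC lay above the TM6 median. Heat shock genes took 1.67%, 1.72% and 1.66% in the median, ranked 2, 1 and 1 among labels. The median TM6 cell was shallow, ranked 32, 32 and 31 of 35 labels by UMIs, with 1537.5, 1516 and 1639 genes, but TM8 was nearly as shallow at 3933, 4282.5 and 4846 UMIs. Mitochondrial transcripts took 3.68%, 4.57% and 4.72%, close to TM7, TM8 and TM9, where the medians spanned 3.35 to 4.80% over the libraries. Whether depth plays a part in the share of immediate early genes was not tested.

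To see which stromal group TM6 cells resembled in other genes, each was given to the group whose profile made its counts most likely, after 72 genes of the immediate early, heat shock and nuclear lists, mitochondrial and sex-linked genes and *Angpt1* had been left out. The profile came from the other control library, or from both for the knockout. In control 1, 111 of 112 TM6 cells (99.1%) went to TM7, TM8 or TM9, in control 2 all 91 and in *Angpt1*ΔNC 43 of 50 (86%). Within these, control 1 split into 25, 42 and 44 cells nearest TM7, TM8 and TM9, control 2 into 10, 9 and 72, and *Angpt1*ΔNC into 1, 1 and 41. The remaining knockout cells went to TM3 (3 cells), TM4 (3) and TM11 (1). The split itself is loose, because cells of known label did not always return to it. TM9 cells returned to TM9 in 59.3% of cases in control 1, 93.0% in control 2 and 98.5% in *Angpt1*ΔNC, and TM8 cells to TM8 in 95.1%, 81.9% and 32.9%, with 64.5% of the knockout TM8 cells given to TM9. The TM9 share of control 1 also depended on the setting: 39.3% by likelihood, 55.4% with the stress genes kept and 65.2% by Spearman correlation, where control 2 had 73.6% and *Angpt1*ΔNC 76%. *Angpt1*, absent from the profiles, was found in 19 of 25 control 1 cells nearest TM7, 19 of 42 nearest TM8 and 26 of 44 nearest TM9, and in control 2 in 5 of 10, 3 of 9 and 36 of 72. In no set of *Angpt1*ΔNC cells was there any. Immediate early shares had medians of 5.59%, 5.60% and 6.49% in control 1 cells nearest TM7, TM8 and TM9, 8.14%, 3.66% and 5.63% in control 2, and 2.91% in the 41 *Angpt1*ΔNC cells nearest TM9.

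**Figure D2:**
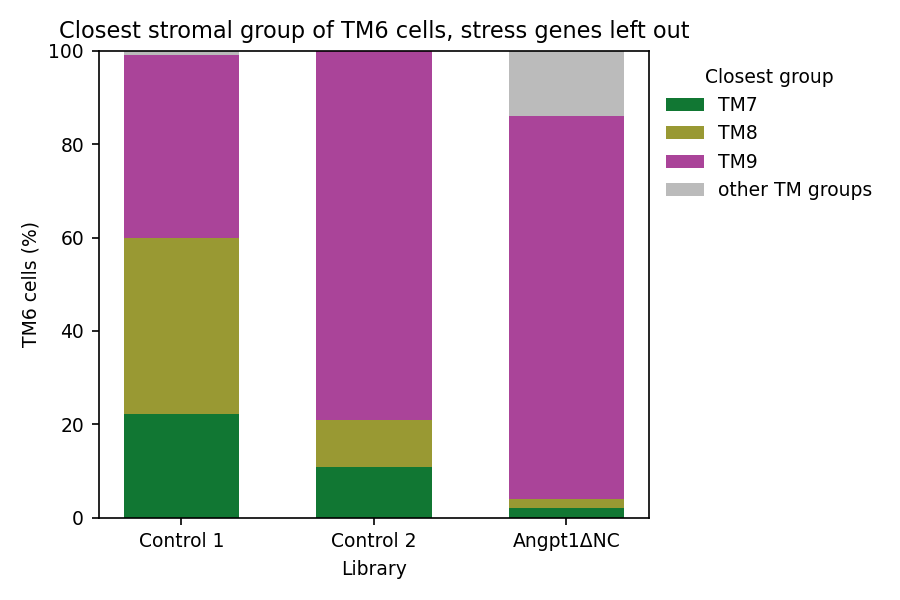
Stacked bars give, for each library, the percent of TM6 cells (vertical axis) whose most likely profile was TM7, TM8, TM9 or another TM group, with stress genes left out. TM9 takes 39.3% of TM6 cells in control 1 (65.2% by Spearman correlation), 79.1% in control 2 and 82% in *Angpt1*ΔNC.

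TM6 made up 1.23% of kept cells in control 1 (CI 1.02 to 1.48), 0.896% in control 2 (CI 0.722 to 1.10) and 0.738% in *Angpt1*ΔNC (CI 0.548 to 0.972). Of TM1 to TM11 cells it was 4.00% (CI 3.30 to 4.79), 2.74% (CI 2.21 to 3.35) and 2.57% (CI 1.91 to 3.37). On the latter scale the control intervals overlapped only at their edges. Since the genes that define TM6 stood at different levels in the libraries, no direction between genotypes is drawn from these shares.

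For genotype, the UMIs of TM6 cells were summed per library and the knockout was compared with the 2 controls by the edgeR quasi-likelihood F-test with Benjamini-Hochberg adjustment. *Angpt1* came first in the check above, and here its 130, 88 and 0 UMIs gave an adjusted p of 0.0804. Of 5200 genes tested, 0 (0.0%) passed an adjusted p of 0.05, while 729 had an unadjusted p under 0.05 and the smallest adjusted p was 0.0558. The same contrast passed 5.07% of genes in TM7 (2.53% higher, 2.54% lower), 3.58% in TM8 (1.97% and 1.61%) and 15.1% in TM9 (7.16% and 7.92%). The 0 for TM6 belongs to this main fit only, as the count depended on settings within edgeR as well as on the tool. Genes were called by edgeR with DESeq2 size factors or with 50 cells from each library, and by DESeq2, as counted further below. With 1 residual degree of freedom, the fit assumes that the lone knockout library varies like the controls. The fits of TM6 to TM9 were also not alike. The knockout sum held 244103 UMIs in TM6, but 1281301, 829925 and 2107866 in TM7, TM8 and TM9. The TM9 fit took its spread wholly from that shared over genes. The shares of genes that passed therefore do not rank these groups by size of effect.

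The genes nearest to the threshold are given as CPM, the UMIs of a gene per 1e6 UMIs of the TM6 sum after TMM scaling. None of them passed in this main fit. *Apoe*, *Dcn*, *Nupr1*, *Bpgm* and *Fst* did pass in each alternative edgeR setting and in DESeq2, at similar log2 changes. Those of *Apoe* ran from 1.61 to 1.72 and those of *Bpgm* from -2.33 to -2.22. *Xist*, expressed from the inactive X of females, had 0, 0 and 151 UMIs, with an adjusted p of 0.0558, while the Y-linked *Ddx3y* had 51, 43 and 17. *Xist* was also at 0 in TM7, TM8 and TM9 of both controls, so sex and genotype cannot be told apart in this contrast. *Apoe*, a lipid carrier, stood at 5478, 6535 and 18424 CPM (log2 change 1.70, SE 0.17, adjusted p 0.0804). *Dcn* stood at 5058, 5161 and 12194 (log2 change 1.34, adjusted p 0.0862), and *Nupr1*, a stress-induced chromatin protein, at 274, 314 and 1005. In these 3 genes the controls lay close together and the knockout apart, a pattern that the rule by which they were named favours. *Enpp2*, which makes lysophosphatidic acid as autotaxin, had 3, 5 and 33 UMIs. *Col23a1*, *Rps18* and *Il11ra1*, also on the higher side, had log2 changes from 1.40 to 2.92. None of these rises was particular to TM6. In TM7, TM8 and TM9 the log2 changes of *Il11ra1* were 3.20, 3.40 and 2.89, and those of *Rps18* 1.61, 1.63 and 1.38.

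On the lower side stood *Bpgm*, bisphosphoglycerate mutase, at 639, 743 and 138 CPM (log2 change -2.24, adjusted p 0.0862), *Fst*, the activin and BMP antagonist follistatin, at 293, 322 and 70.9 (log2 change -2.03, adjusted p 0.102), *Igfbp3*, an IGF binding protein, at 484, 274 and 15.8, and *Angptl1*, at 105, 150 and 3.94. *Tsc22d1*, *Gnas* and *Cd24a* had log2 changes of -1.36, -1.12 and -2.69. *H2-Q6* (37, 38 and 0 UMIs), *H2-Q7* (50, 43 and 3) and *Gm10260* (143, 165 and 1) completed the 10. *H2-Q6* and *H2-Q7* belong to a family of closely related class I genes that differ between strains. *Gm10260* is a near copy of *Rps18*, which stood on the higher side. Reads may be split between such copies, so the values of these genes, *Rps18* included, are uncertain. In TM7, TM8 and TM9 of the same libraries the log2 changes of *Apoe* were 2.12, 1.58 and 1.13 and those of *Dcn* 0.70, 0.80 and 0.93, all of which passed. *Bpgm* had 0.10, -0.78 and -1.87, of which TM9 alone passed, and *Fst* -0.25, -1.03 and -1.52, of which TM8 and TM9 passed, and the TM9 fit took its spread wholly from that shared over genes. *H2afv*, where the Cre transgene lies, had 121, 106 and 34 UMIs in TM6 (log2 change -0.95, adjusted p 0.230).

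By list, the median log2 change in TM6 was -0.66 for the immediate early genes, beside -0.61 in TM7, -0.13 in TM8 and -0.52 in TM9, and in TM6 24 of the 38 had an unadjusted p under 0.05, where 729 of 5200 genes did. The median of all genes in TM6 was -0.03. These genes define the group and are given as a description. The chemokine and cytokine genes had a median of -1.41 over 13 tested members in TM6, beside -0.02 in TM7, 0.45 in TM8 and 0.03 in TM9. Pericyte genes had -2.28 over 6 tested members in TM6, beside -1.44 in TM7, -2.25 in TM8 and -0.67 in TM9. Trabecular meshwork genes had -1.07 over 6 tested members, beside -0.46, -1.13 and -1.83. Heat shock genes had -0.08, collagen and basement membrane genes -0.10, interferon-stimulated genes 0.01 and oxidative phosphorylation genes 0.12, all near the value of all genes.

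Whether the genotype contrast differed between TM6 and its neighbours was tested directly in edgeR, with the library as a block, as the interaction of cell group and genotype. The spread in this fit came wholly from that shared over genes, so its p-values rest on that shared value. Of 11155 genes 92 passed an adjusted p of 0.05 (0.825%), 20 with a higher (0.179%) and 72 with a lower value (0.645%) in TM6, and 956 had an unadjusted p under 0.05. Of the 92, 13 were among the 100 genes that lead TM6 over all other cells and are not results here. Of 14 chemokine and cytokine genes, 7 passed, all lower, with a median difference of -1.81 against -0.21 over all genes. Both the 7 and the median include *Cxcl10* and *Cxcl12*, which lead TM6, differed by -2.07 and -0.94 and are not results here. The others that passed were *Ccl2*, *Ccl7*, *Cxcl1*, *Cxcl2* and *Ccl11*. Of these, *Ccl2* and *Ccl7* did not pass against TM7 alone.

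*Cxcl1*, a neutrophil chemoattractant, had 1544, 2469 and 726 CPM (here scaled over all 6 sums) in TM6 and 2559, 2703 and 3244 in TM7 to TM9 together. The difference between the log2 changes was -1.73, in a fit whose shared spread does not measure how far pools vary for this gene. *Cxcl2*, of the same function, had 58.4, 429 and 15.2 in TM6 against 1511, 1581 and 2443, a difference of -4.49, and here the TM6 controls differed widely from each other. *Ccl7*, a monocyte chemokine, had 275, 331 and 98.9 against 1215, 1004 and 1715, a difference of -2.24. *Ccl2*, already among the genes lowest in TM6, had 578, 586 and 323 against 3342, 3244 and 11180, a difference of -2.61. In these 4 genes the *Angpt1*ΔNC value was below both controls in TM6 and above both in the neighbours. *Ccl11*, the eosinophil chemokine eotaxin, had 105, 182 and 0 UMIs in TM6, and in TM7 to TM9 together 1879, 1336 and 405 CPM, so it was low in the knockout on both sides. The knockout count of 0 lies under a floor of 3 UMIs and its fitted difference is no bound.

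**Figure D3:**
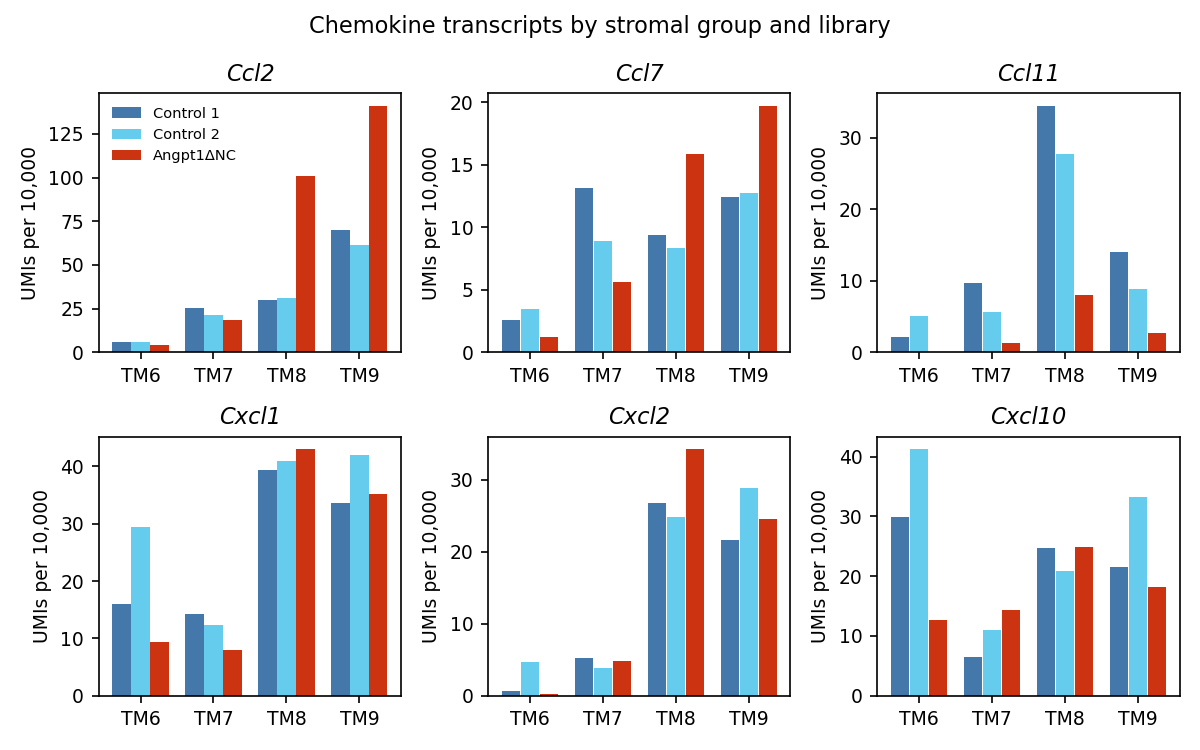
Bars are mean levels in UMIs per 10,000 (vertical axis, from 0, with its own scale in each panel) of 6 chemokine genes in TM6 to TM9, coloured by library; each bar is 1 library and has no error bar. In TM6 *Ccl2* has 5.98, 5.94 and 3.87 while TM9 has 70.1, 61.5 and 141.

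The neighbours were not the same mixture in each library, as TM9 gave 327 of 656 knockout cells but 204 of 1462 and 298 of 1649 control cells. Within TM7, *Ccl2*, *Ccl7* and *Cxcl1* were lowest in the knockout library, as in TM6, at 18.6, 5.65 and 8.04 UMIs per 10,000. Against TM7 alone 155 genes passed, the differences for *Ccl2* (-0.59) and *Ccl7* (-0.73) did not pass, and those for *Cxcl1* (-0.74), *Cxcl2* (-4.11) and *Ccl11* did, and with equal numbers of TM7, TM8 and TM9 cells, an alternative chosen after seeing the data, all 5 passed. Outside the lists, *Nfkbia*, the inhibitor of NF-kB that this factor itself induces, passed at -1.81 and *Ptx3*, a pentraxin of innate immunity, at -2.93. On the higher side *Cryab*, a small heat shock protein of the lens and muscle, had 812, 391 and 1662 CPM in TM6 against 1117, 1365 and 1523, a difference of 1.18. *Dcn* passed at 0.44 and *Tsc22d3*, a glucocorticoid target, at 1.30, while *Bpgm*, *Tsc22d1* and *Igfbp3* passed at -1.62, -0.97 and -2.18. With equal numbers of cells *Tsc22d3* (0.92) and *Cxcl12* (-0.26) did not pass. *Igfbp3* did not pass with DESeq2 size factors (-2.12) or without a filter on low counts (-2.09). Haemoglobin genes passed too, *Hbb-bs* at -6.10, where TM6 of control 1 (8.998 UMIs per 10,000) and TM8 of *Angpt1*ΔNC (20.9) carried most of the signal (-0.39 against TM7 alone, which did not pass), and their part in the other differences was not tested.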

How the data were processed

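The unnormalized UMI counts deposited by the authors were used, with their cell filter, doublet removal (scDblFinder) and cluster labels. Natural log integrated values were also deposited by the authors and were not used, and 3467 other value columns were left aside. The submitters' processing notes name Cell Ranger 2.1.1, Seurat 3.1.3 and mm10, while the matrix header names Cell Ranger 3.0.2. The members and lists were chosen with earlier results of these data known.

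Each level is the average, over the cells of a group, of a gene's UMIs per 10,000 UMIs (31053 genes), and folds had 0.1 added to each mean. List counts used genes with a mean level of at least 0.1. The genes named were the 25 highest in TM6 with a UMI in at least 25% of TM6 cells, the 15 lowest with a UMI in at least 25% of TM7, TM8 and TM9 cells, by the weaker fold of the 2 controls over (or under) all 3 groups, and members of the lists. For genotype they were up to 10 genes per direction by adjusted p, past a log2 change of 1 and outside the range of the controls, without the 100 genes that lead TM6. *Hbb-bs*, *Nfkbia*, *Ptx3*, *Bpgm*, *Tsc22d1* and *Igfbp3* in the test of the difference, and the 4 promoters shown, were chosen after their values were seen.

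Counts were summed per library and tested with edgeR 4.0.16 (TMM, filterByExpr, quasi-likelihood F-test, Benjamini-Hochberg 0.05), with DESeq2 1.42.0 as an alternative, in R 4.3.3. The other steps used Python 3.11.15, numpy 2.4.6, scipy 1.17.1, pandas 2.3.3 and matplotlib 3.10.9. Intervals are 95% Clopper-Pearson intervals, and a count of 0 was held against a floor of 3 counts. Cells were thinned without replacement to 2000 or 1000 UMIs (seed 1), and the closest group was the highest multinomial likelihood with 0.5 added to the profile counts. Promoters were 250 bases from RefSeq on GRCm38.p6, and positions came from GENCODE M21, which holds 31011 of the 31053 identifiers. The code was tested on simulated data. The genotypes were compared between pools of different animals, and the library was a block where TM6 was set against its neighbours. Some genes that the rules name are not reported here.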

Additional observations from a re-analysis of the deposited data

Results flagged for a closer look

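All values here come from the edgeR test of whether the log2 change of *Angpt1*ΔNC against the controls differed between TM6 and the sum of TM7 to TM9, and each is listed because the 2 cell groups differed in that test. The number of such genes was 92. Negative values mean a lower log2 change in TM6, and CPM values (UMIs per 1e6 UMIs of a sum) are in the order control 1, control 2 and *Angpt1*ΔNC.

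Among chemokine genes the differences were -2.61 for *Ccl2*, -4.49 for *Cxcl2*, -1.73 for *Cxcl1* and -2.24 for *Ccl7*. Against TM7 alone *Ccl2* (-0.59) and *Ccl7* (-0.73) did not pass. *Ccl11* had -11.19 and *Ptgfr*, the prostaglandin F receptor, -10.05, both fitted values that are no bound because TM6 of the knockout had 0 UMIs. *Ptgfr* did not pass without a filter on low counts or with equal numbers of TM7, TM8 and TM9 cells. *Rsad2* had -2.62 (81.4, 119 and 38.03 in TM6; 118, 70.4 and 221 in TM7 to TM9) and *Bst2*, also induced by interferon, -1.44 (159, 139 and 87.5; 198, 196 and 313).

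*Hes1* had -1.26 (791, 679 and 540 in TM6; 217, 212 and 377 in TM7 to TM9), *Id3* -0.77 (4284, 4660 and 3590; 2047, 1855 and 2670) and *Rhob* -1.07 (574, 444 and 339; 104, 79.0 and 128). *Id3* did not pass against TM7 alone (-0.28), nor *Rhob* with equal numbers (-0.57). *Hes1* and *Rhob* are also among the 25 genes highest in TM6 over TM7, TM8 and TM9. That choice used the same control values as this test, so both differences are given as a description only. *Ier3* had -0.63 (2068, 1838 and 1358; 1852, 1805 and 1975) and did not pass without a filter (-0.54), against TM7 alone (0.34) or with equal numbers (-0.29). *Mgp*, for matrix Gla protein, had -0.58 (4457, 5001 and 3761; 5248, 6432 and 6917), *Mfap4*, of elastic fibres, -0.73 (1129, 1133 and 506; 930, 1034 and 725) and *Bdnf* -1.10 (205, 116 and 171; 86.2, 125 and 232). *Bdnf* passed in none of the 4 alternatives (-1.03 to -0.41), and *Mfap4* in 1 of 4, against TM7 alone.

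A higher log2 change in TM6 was found for *Cryab* at 1.18, *Tsc22d3* at 1.30 (186, 98.5 and 270 in TM6; 94.7, 81.7 and 67.9 in TM7 to TM9) and *Dcn* at 0.44 (4820, 4857 and 11767; 7109, 7912 and 13435), of which *Tsc22d3* did not pass with equal numbers (0.92). The equal numbers were an alternative chosen after seeing the data. The cause of these differences was not tested.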

How the results depend on the processing

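The knockout is 1 library, so no result says how far knockout pools vary, and whatever differs between pools moves with genotype. With 1 added in place of 0.1, genes at least 2-fold above TM7, TM8 and TM9 fell from 55 to 29 and the median fold of the immediate early genes from 2.55 to 2.12. Leaving out either control gave 66 to 72 genes and folds of 2.29 to 2.67. *Angpt1* was found in 38.5% and 25.9% of control 1 TM6 cells thinned to 2000 and 1000 UMIs and in 26.7% and 18.7% in control 2, since fewer UMIs per cell show fewer of them, and its mean levels were 2.84 and 2.20. Of TM1 to TM11 cells, TM6 made up 4.00%, 2.74% and 2.57%. By Spearman correlation 93.4% of control 2 TM6 cells were closest to TM7, TM8 or TM9, against 100% by likelihood. For genotype in TM6, edgeR called 0 genes (729 at an unadjusted p under 0.05), but 344 with DESeq2 size factors, 296 without a filter on low counts, 151 with at least 10 counts in every sum and 237 with equal numbers of cells, and DESeq2 called 53. The difference between TM6 and its neighbours passed in 155 genes against TM7 alone, 64 of them higher, and with equal numbers of TM7, TM8 and TM9 cells, chosen after seeing the data, 43 were lower. Of the 92 genes, 82 passed again with DESeq2 size factors, 70 without a filter, 54 against TM7 alone and 52 with equal numbers. Against TM7 alone 87 of the 91 genes tested again had the same sign, and of the named genes *Ier3* turned, from -0.63 to 0.34. Where no cause is named, the cause was not tested. Among the other main values 33 kept their direction and size, as did 240 values of single named genes. Another 113 such values moved, 79 newly passed a threshold, 16 no longer passed and 1 was counted as turned. Values that did not pass in the main fit could change sign as well. *Ptn* went from -0.39 to 1.37 against TM7 alone, where it passed. TM6 cells held medians of 3839, 3988 and 4576.5 UMIs, so genes at low levels are missed in single cells.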

Other observations

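*Ptn*, for the heparin-binding growth factor pleiotrophin, had 5.98, 10.7 and 32.0 UMIs per 10,000 in TM6 of control 1, control 2 and *Angpt1*ΔNC, and 25.1, 29.5 and 64.3 in TM9, where it was highest of the 4 uveal groups. *Mdk*, for the related midkine, had 9.60, 8.61 and 6.81 in TM6 and 9.98, 10.4 and 7.15 in TM9. *Ptgs2*, for the inducible cyclooxygenase, is often grouped with immediate early genes and had 9.62, 14.4 and 9.77 in TM6, below TM7, TM8 and TM9 in every library. *Myoc*, a gene of the trabecular meshwork, had 0.294, 0.0677 and 0.133 in TM6 and 7.999, 10.5 and 3.18 in TM7. *Aqp1*, a water channel, had 0.654, 0.969 and 3.45 in TM6 and 2.58, 3.21 and 5.40 in TM9. The 20 fibroblast genes had median folds in TM6 over the mean of the other groups of 0.845, 0.692 and 0.868, and none stood above all 3 groups in both controls. The genotype difference of *Ptn* between TM6 and the sum of TM7 to TM9 was -0.39 and did not pass (adjusted p 0.338), while against TM7 alone it was 1.37 and with equal numbers of TM7, TM8 and TM9 cells, chosen after seeing the data, 0.87, and both passed.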
